A study of Saccharomyces cerevisiae with 176 samples.

Results

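The 8 protein genes carried by the mitochondrial chromosome of budding yeast (Saccharomyces cerevisiae) were followed through every growth condition of an RNA sequencing series on aneuploid cells, that is, cells with single chromosomes gained or lost. They are COX1 (Q0045), COB (Q0105), ATP6 (Q0085), ATP8 (Q0080), OLI1 (Q0130), COX2 (Q0250), COX3 (Q0275) and VAR1 (Q0140). They were taken by name from the deposited table, where they make up 8 of 6692 rows, and 20 further rows lie on the same chromosome. The series held 81 groups of libraries and set aneuploid strains or populations against euploid ones under several ways of growth.

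In exp1, exp2 and exp3, aneuploid strains of S288C background, called A18, A21 and so on, gave 36 libraries of total RNA and the euploid strain 2N gave 8. All grew exponentially at 25 °C in YEPD, a rich medium, with 2% glucose. Under the same labels, exp4 held 18 total RNA libraries of 10 aneuploid strains, and exp5 and exp6 held 24 poly(A) libraries each, of 12 and 8 aneuploid strains. None of these had a 2N library. A phosphate-limited chemostat, in which the dilution rate of 0.17 volumes per h sets the rate of growth, gave poly(A) libraries of 9 aneuploid strains and 2N, 2 libraries each. Pools of meiotic progeny of S288C diploids and triploids that carry the plasmid pRS315-STE2pr-spHIS5 were made under names the labels give as Tsai and dilution, each as an aneuploid and a euploid population of 3 libraries, beside 3 libraries of an exponentially growing haploid (WT). The same haploid was followed at 14 times between 0 and 26 h, with 2 libraries each. Another haploid, of W303 background, had 3 libraries after 40 min in 500 mM NaCl at 30 °C. For the libraries of 1 group the labels do not say that they came from separate cultures, so p-values measure only the spread between libraries, which may be technical.

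The mitochondrial genome of yeast encodes the catalytic core of the respiratory chain, and most other proteins of the organelle are imported from the cytosol. COX1, COX2 and COX3 encode the core of complex IV (cytochrome c oxidase), COB encodes cytochrome b of complex III, ATP6, ATP8 and OLI1 encode membrane subunits of the ATP synthase, and VAR1 encodes a protein of the small mitochondrial ribosomal subunit. Their mRNAs are made by a dedicated RNA polymerase (RPO41 with its factor MTF1), are cut from longer precursors, and end at a conserved 12-base motif without the poly(A) tail of nuclear mRNAs. Respiration genes are held down by glucose, and cells that lose mitochondrial DNA lack these mRNAs altogether.

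The members lie on the plus strand of the mitochondrial chromosome (M in sacCer3, 85779 bases, 82.9% A and T). COX1 spans 13818 to 26701 with 8 coding exons, ATP8 27666 to 27812, ATP6 28487 to 29266, COB 36540 to 43647 with 6 coding exons, OLI1 46723 to 46953, VAR1 48901 to 50097, COX2 73758 to 74513 and COX3 79213 to 80022, in the annotation deposited with the series. Its models hold coding sequence only, of 147 bases for ATP8, 231 for OLI1 and 1605 for COX1. COX1 shares its span with 6 reading frames inside introns (AI1, AI2, AI3, AI4, AI5-alpha, AI5-beta) and COB with 3 (BI2, BI3, BI4), so reads there could be split between rows, and the levels of these pairs are uncertain. A pair of motifs is shown because they mark where transcripts of the members start and end. The start motif of the mitochondrial polymerase, ATATAAGTA, occurred 11 times on the plus strand and 3 times on the minus strand of the chromosome. Within 2000 bases upstream of a member it was found on the plus strand before COX1 (469 bases from the start codon), COB (1662 bases) and OLI1 (652 and 574 bases). Those windows of 30 bases, from the RefSeq sequence of the same chromosome with the motif in capitals, read 5′ to 3′ as follows.
COX1 start motif, chrM:13334-13363: aaataataagtattgATATAAGTAatagat
COB start motif, chrM:34863-34892: attataagaaatattATATAAGTAatatat
OLI1 first start motif, chrM:46056-46085: tctttattaatattaATATAAGTAatatat
OLI1 second start motif, chrM:46134-46163: atcttatacacatttATATAAGTAtatata

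The conserved 3′ end motif, the run in capitals below, occurred 9 times on the plus strand and 2 times on the minus strand. Within 1000 bases after the stop codon it followed COX1 by 69 bases, ATP6 by 87, COB by 98, COX2 by 63, COX3 by 101 and VAR1 by 580. It stands in these windows of 30 bases.
COX1 end motif, chrM:26761-26790: taatataatAATAATATTCTTataaaaata
ATP6 end motif, chrM:29344-29373: cccccttttAATAATATTCTTttatctaat
COB end motif, chrM:43736-43765: taatactttAATAATATTCTTaaaaataat
VAR1 end motif, chrM:50668-50697: aataaataaAATAATATTCTTaatttttat
COX2 end motif, chrM:74567-74596: aataattatAATAATATTCTTaaatataat
COX3 end motif, chrM:80114-80143: tattattatAATAATATTCTTacaaatata

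Counting both strands, the start motif stood in the 2000 bases upstream of 57.9% of the 19 mitochondrial protein genes in RefSeq and of 4.39% of 5993 nuclear ones. The end motif stood in the 1000 bases downstream of 42.1% of the mitochondrial genes and 0.251% of 5985 nuclear ones. Windows of genes that share a span can overlap, and both motifs are almost all A and T, as is 82.9% of the mitochondrial chromosome. The shares are not corrected for either. A match is a description of these letters and not a measured start or end.

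The members that could be read differed between the library types, which also differed in experiment. In the 62 total RNA libraries of exp1 to exp4, COX1, COB, ATP6, OLI1, COX2 and COX3 had values above 0 in every library, so each aneuploid strain and 2N carried mitochondrial transcripts. Levels are log2(TPM + 1), where TPM is the share of a transcript among all transcripts, corrected for length. OLI1 had the highest median level (8.58), followed by COX1 (7.11), COB (7.08), COX3 (7.03), ATP6 (6.24), COX2 (6.21), ATP8 (2.81) and VAR1 (1.40). ATP8 was listed at 0 in 12 of these libraries and VAR1 in 3. In the 111 poly(A) libraries other than the NaCl ones, OLI1 (median 5.49) and COX1 (2.74) were the members with a median above 2, and ATP8 was listed at 0 in 110 libraries. COB, COX2, COX3, ATP6 and VAR1 were listed at 0 in 32, 36, 32, 41 and 42 of the 111. The coding sequences differ in A content: the 30 bases richest in A hold 23 A in VAR1, 18 in COX1 and 14 in OLI1. The longest run of A in the whole coding sequence is 9 bases in VAR1, 6 in COX1 and 3 in OLI1. COX2, not shown, also has a run of 6. The windows of VAR1, COX1 and OLI1 are shown because poly(A) selection binds runs of A, with runs of at least 5 A in capitals.
VAR1, chrM:49033-49062: ataaataatAAAAAAAtaaataatataaaa
COX1, chrM:26528-26557: aatggattaaacaataaagttaataataaa
OLI1, chrM:46825-46854: aatggtgtatcaagaaacccatcaattaaa
Whether such stretches bear on which mRNAs were caught was not tested, and comparisons were made within a library type.

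Depth is unknown, since the table holds no counts. TPM summed over the table reached between 5.03% and 12.3% of the full total in exp1 to exp4, between 95.0% and 99.6% in exp5 and exp6, and between 15.4% and 97.2% in the time course. Genes whose mean level over the libraries of a fit was under 2 were left out of that fit. This removed VAR1 everywhere and left OLI1 and COX1 in the poly(A) fits, or OLI1 alone in the time course. A gene is called changed below at a Benjamini-Hochberg adjusted p under 0.05 over all genes tested (limma).

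Exponentially growing aneuploid strains had higher levels of 6 mitochondrial mRNAs than 2N. On average over 10 strains COX3, COB and COX1 were 1.78-fold, 1.66-fold and 1.60-fold higher, and COX2, ATP6 and OLI1 were 1.59-fold, 1.57-fold and 1.56-fold higher. COX1, the catalytic subunit of complex IV, lay at 5.68, 7.17 and 7.88 (lowest, median and highest) in the 36 aneuploid libraries, against 6.09, 6.15 and 6.43 in the 8 libraries of 2N. Of the aneuploid libraries 32 were above the highest 2N library of their own experiment, 2 were within its range and 2 were below it, and these last are the pair from A18. OLI1, the ring subunit of the ATP synthase, lay at 7.04, 8.56 and 9.58 in aneuploid libraries, against 7.03, 7.51 and 8.19 in 2N. COB lay at 5.78, 6.93 and 8.08 in aneuploid libraries, against 5.72, 6.01 and 6.28 in 2N. For OLI1 and COB the groups overlapped over all experiments, while 32 and 33 of the 36 aneuploid libraries were above the 2N range of their own experiment.

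The fitted difference, aneuploid mean minus 2N with a term for experiment, was 0.68 ± 0.06 for COX1 (SE, adjusted p = 2.51e-10), 0.73 ± 0.09 for COB (7.87e-08) and 0.83 ± 0.09 for COX3 (1.96e-08), on the log2 scale. It was 0.64 ± 0.09 for OLI1 (adjusted p = 2.18e-06), 0.65 ± 0.12 for ATP6 (8.76e-05) and 0.66 ± 0.12 for COX2 (0.000138). So 6 of the 7 members tested were called higher and none lower, where 10.0% of the 3152 genes tested were called higher and 4.19% lower. ATP8 differed by 0.61 ± 0.57 (adjusted p = 0.543). The median change of all genes tested was 0.05. Within single experiments COX1 differed by 0.92 in exp1, 0.99 in exp2 and 0.83 in exp3, and the same 3 values for COB were 0.59, 0.97 and 1.05. ATP6 was 0.79, 0.41 and 1.15 there, and missed the threshold in exp2 (adjusted p = 0.408). Summed, as a share of the TPM in the table, the members made up 0.447%, 1.38% and 2.22% in the aneuploid libraries (lowest, median, highest), against 0.579%, 0.724% and 0.917% in 2N. These p-values rest on the spread between libraries of the same strain. With the 11 strains as a random term, none of the 7 was called (adjusted p of 0.496 to 0.996), and 1 gene of all those tested was. That fit used 1 correlation between libraries of a strain, shared by all genes. 2N is the only euploid strain there, so the spread between euploid strains is unknown.

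**Figure D1:**
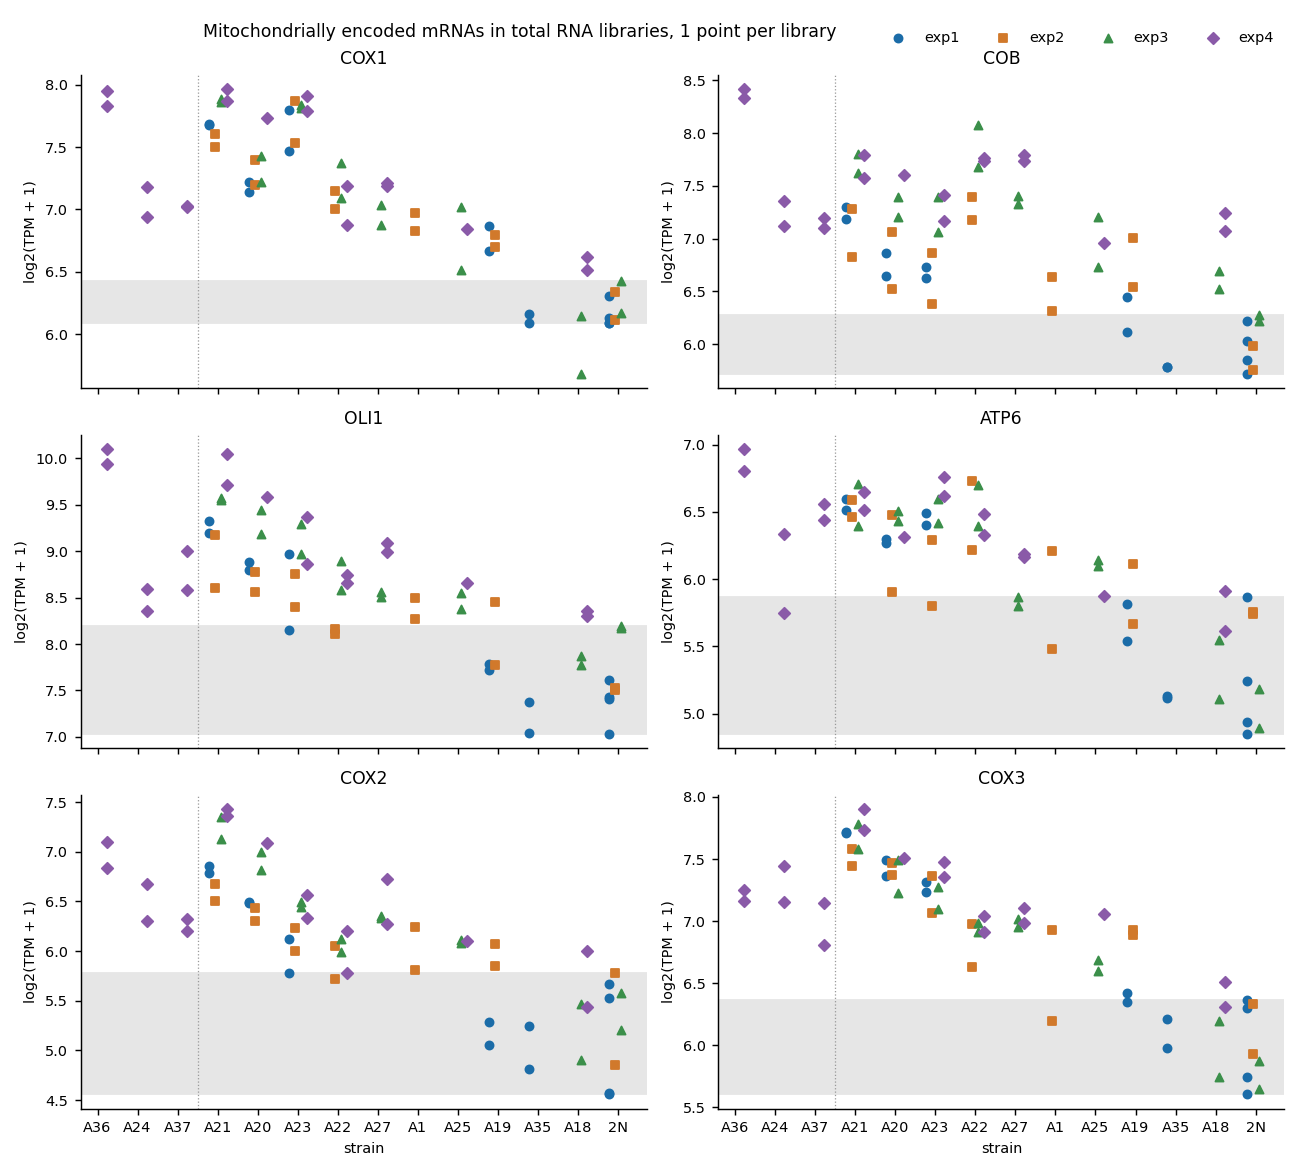
Levels of 6 mitochondrially encoded mRNAs (y axis, log2(TPM + 1)) by strain (x axis) in total RNA libraries, with 1 point per library, marker shape for the experiment and a grey band for the range of all 2N libraries. COX1 of A21 lies between 7.50 and 7.97 in all its libraries, while A35 and A18 in exp1 to exp3 lie at 6.16 or lower. Strains left of the dotted line were in exp4 only, which had no 2N.

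Strains differed in how far they departed from 2N. In A21 all 6 of these mRNAs were called higher (20.6% of genes tested were called higher in that comparison), by 1.23 to 1.66 on the log2 scale. OLI1 in the 6 A21 libraries of exp1 to exp3 was 9.20, 9.32, 9.17, 8.60, 9.58 and 9.56, all above the highest 2N library (8.19). In A20 the 6 were called higher by 0.90 to 1.43 (background 14.5%), in A23 by 0.79 to 1.49 (20.1%) and in A22 by 0.59 to 1.44 (8.57%). In A27 and in A19, 4 of the 6 were called higher (backgrounds 7.80% and 6.38%), in A1 COX1 and OLI1 (1.62%) and in A25 only COX3 (1.08%). A35 and A18 had none called higher (backgrounds 1.49% and 2.28%). None was called lower in A21 (11.1% of genes were), A20 (9.58%), A23 (9.23%), A22 (5.87%), A27 (0.730%), A19 (6.82%), A1 (0.381%), A25 (1.05%) or A35 (1.87%). COX1 in A18 was called lower, by -0.42 ± 0.13 (adjusted p = 0.047, background 2.70%), with levels of 6.14 and 5.68 against 6.17 and 6.43 in the 2N libraries of exp3. A35, A18, A1, A25 and A27 were each in 1 of these experiments, with 2 libraries. For COX1 the order was A23 (1.49 ± 0.08), A21 (1.48), A20 (1.04), A22 (0.90), A1 (0.71), A27 (0.63), A19 (0.58), A25 (0.44), A35 (-0.04) and A18 (-0.42). For OLI1 it was A21 (1.58 ± 0.12), A20 (1.28), A23 (1.10), A1 (0.92), A22 (0.67), A19 (0.48), A27 (0.47), A25 (0.40), A18 (-0.24) and A35 (-0.25). Over the 6 mRNAs, 27 of the 54 steps between neighbours in such an order were smaller than the larger standard error of the pair. All of these comparisons share the 2N libraries.

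The mRNAs did not keep the same proportions in every strain. In A23 COX1 exceeded COB in each library, by 0.84 and 1.06 in exp1, 1.15 and 1.01 in exp2, 0.44 and 0.74 in exp3, and 0.62 and 0.49 in exp4, as differences of log2(TPM + 1). In A22 COB exceeded COX1 in each library, with COX1 minus COB at -0.18 and -0.25 in exp2, -0.59 and -0.71 in exp3, and -0.58 and -0.86 in exp4. The strains did not overlap in any experiment. In 2N the difference was 0.46, 0.06, -0.13 and 0.41 in exp1, 0.58 and 0.13 in exp2, and -0.05 and 0.15 in exp3. COB also exceeded COX1 in every library of A18, A24, A25, A27, A36 and A37, so that 7 of the 10 strains of exp4 had this sign. In A18 the difference was -0.56 and -0.84 in exp3 and -0.56 and -0.63 in exp4, and in A27 it was -0.37 and -0.45 in exp3 and -0.58 and -0.55 in exp4. A23 and A22 were singled out here after their values were seen, and the difference between them was not tested. Both genes hold introns, whose reading frames have rows of their own in the table. In the total RNA libraries the medians of AI1 and AI2, the first reading frames inside COX1, were 7.30 and 6.50, and those of the other 4 between 2.68 and 4.47. The medians of BI2, BI3 and BI4 inside COB lay between 2.18 and 3.44.

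**Figure D2:**
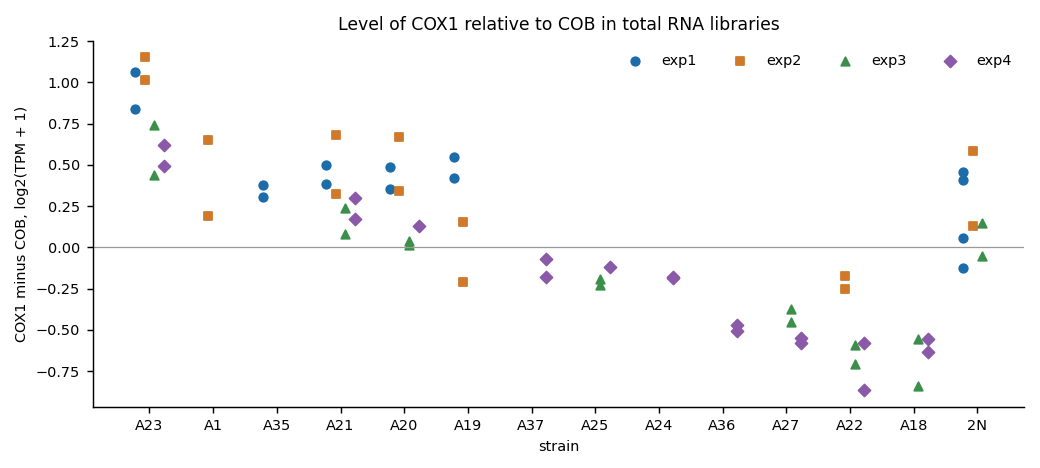
Difference between the levels of COX1 and COB (y axis, COX1 minus COB in log2(TPM + 1)) by strain (x axis) in total RNA libraries, with 1 point per library and marker shape for the experiment. All A23 libraries lie between 0.44 and 1.15 and all A22 libraries between -0.86 and -0.18.

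Among the 10 aneuploid strains of exp4, 6 of the 7 members tested differed between strains, where 28.2% of 3546 genes did. Adjusted p-values (limma's F-test) were 4.92e-05 for COX1, 0.000193 for COB, 0.000284 for OLI1, 0.00105 for COX3, 0.00368 for COX2 and 0.00776 for ATP6. A36, which was not in exp1 to exp3, had the highest levels of COB (8.42 and 8.34), and its OLI1 (9.94 and 10.10) lay near that of A21 (9.71 and 10.04). Relative to the mean of the other strains, A36 was higher in COB by 0.98 ± 0.09 (adjusted p = 4.6e-05), in OLI1 by 1.07 ± 0.13 (0.000408), in COX1 by 0.64 and in ATP6 by 0.63 (4 called higher, background 13.1%). Its COX3 differed by 0.04 ± 0.10 (adjusted p = 0.832). In A21 COX1, OLI1, COX2 and COX3 were called higher (background 7.56%), by 0.68 to 1.00. In A23 COX1 alone was called higher, by 0.60 ± 0.09 (adjusted p = 0.002, background 6.03%). In A18 all 6 were called lower (background 9.08%), by -0.86 to -0.38, with COX1 at 6.51 and 6.62. The second A18 library carries A18 in its title and A20 in its strain field. A37 had COB called lower (1.24%) and A24 OLI1 (6.88%). A25 and A20 had 1 library each in exp4, taken to vary like those of the other strains, and on that assumption COX1 and COB were called lower in A25 (4.71%). No member was called the other way in A36 (3.64% of genes were lower), A21 (4.23% lower), A23 (2.88% lower), A18 (4.82% higher), A25 (0.141% higher), A37 (1.10% higher) or A24 (0.451% higher). In A20, A22 and A27 none was called in either direction, where 0.790%, 2.37% and 3.36% of genes were called higher and 0.818%, 3.24% and 1.92% lower.

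Nuclear partners of the members were called in part. In the aneuploid mean against 2N, where 10.0% of all genes were called higher, of the nuclear subunits of complex III 3 of 9 tested were called higher and none lower, with a median change of 0.47. They were QCR7 (0.72 ± 0.21, adjusted p = 0.0167), COR1 (0.53 ± 0.12) and QCR2 (0.47 ± 0.13). Of the ATP synthase subunits 5 of 14 were called higher (median 0.44), led by TIM11 (1.32 ± 0.35), ATP18 (1.04 ± 0.32) and ATP3 (0.49 ± 0.10), and of complex IV none of 9 (median 0.43). Single strains differed in this. In A21 8 of 9 subunits of complex III, 12 of 14 of the ATP synthase and 5 of 9 of complex IV were called higher (background 20.6%), in A20 8, 10 and 5 (14.5%), in A23 5, 8 and 2 (20.1%) and in A22 5, 6 and 0 (8.57%). In A19 and A27 3 ATP synthase subunits each were called higher and none of complex III or IV (backgrounds 6.38% and 7.80%). In A1, A25, A35 and A18 no subunit of the 3 complexes was called higher, where only 1.08% to 2.28% of all genes were. Lower calls were 1 ATP synthase subunit in A19 (background 6.82%), 2 in A18 (2.70%), and 2 with 1 of complex IV in A35 (1.87%). Among the strains of exp4, 6 of 9, 8 of 14 and 6 of 9 subunits of complex III, the ATP synthase and complex IV differed (background 28.2%). In the aneuploid mean no gene was called among 6 tested for mitochondrial transcription and DNA maintenance (median 0.10), 3 for mitochondrial RNA processing (0.14), 6 translational activators (0.20), 6 for membrane insertion and assembly (0.40) or 24 proteins of the small mitochondrial ribosomal subunit (0.15). The 3 genes of the retrograde response (CIT2, DLD3 and PDR5), which rises in cells without mitochondrial DNA, had a median change of -0.02 with none called. The median over all genes was 0.05. Before the filter the lists other than the retrograde one held 10, 18, 19, 17 and 30 genes, in the order given. In A21 2, 2, 0, 1 and 7 of those tested were called higher (background 20.6%). In A20 these counts were 1, 1, 2, 1 and 4 (14.5%), and in A23 0, 1, 1, 2 and 3 (20.1%). In A22 and in A27 they were 0, 0, 0, 0 and 1 (8.57% and 7.80%), and in A19 1, 0, 0, 0 and 0 (6.38%). In A1, A18, A25 and A35 all were 0 (1.08% to 2.28%). Of the retrograde genes A21 had 1 called higher and 1 lower, A20 1 lower and A22 1 higher. Across the 62 total RNA libraries, after the mean of each experiment was taken off, the nuclear genes whose levels followed the mean of the 8 members most closely among 3226 were FET3 (an iron transport oxidase, r = 0.83), SED1 (a cell wall protein, 0.82), COR1 (complex III, 0.82), NDE1 (an external NADH dehydrogenase of mitochondria, 0.81) and ALD4 (mitochondrial aldehyde dehydrogenase, 0.81). These correlations describe libraries that share strains and batches.

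In the poly(A) libraries of exp5 and exp6 the strains differed in both members tested, where 98.4% and 94.7% of genes did, so that a call was no distinction. Adjusted p-values for COX1 were 4.1e-06 in exp5 and 0.00531 in exp6, and for OLI1 0.000287 and 0.00171. A30 was high in both experiments. Its OLI1 was 5.96 and 5.65 in exp5 and 6.63, 6.91 and 7.42 in exp6, and its COX1 3.25 and 3.38 in exp5 and 2.71, 3.18 and 3.93 in exp6. Against the other strains A30 was higher in exp5 by 0.58 ± 0.15 for COX1 and 0.71 ± 0.20 for OLI1 (both called, background 35.1%), and in exp6 by 1.05 ± 0.25 and 1.02 ± 0.20 (both called, background 22.7%). A28 was also called higher in both genes in exp5 (31.5%), by 0.66 and 0.65, and in neither in exp6, where it differed by 0.57 ± 0.25 and 0.36 ± 0.20. COX1 was called higher in exp5 in A26 (28.5%) and A33 (26.4%), by 0.53 and 0.41. No member was called lower in these strains in exp5 (31.1% and 37.4% of genes were). In exp6 their COX1 differed with the other sign, by -0.56 in A26 and -0.14 in A33. Neither was called there (47.2% and 38.8% of genes were called lower).

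A32, A34 and A38 had lower COX1 and OLI1 in exp5, with both called in each strain (backgrounds 38.9%, 32.9% and 30.6%). COX1 was 2.15 and 2.30 in A32, 1.86 in both A34 libraries and 1.99 and 1.90 in A38, while the lowest library of the other exp5 strains had 2.52. In exp6 A32 was called lower in OLI1, by -0.50 ± 0.20 (22.9%), and so was A26, by -0.49 ± 0.20 (47.2%). A34 and A38 differed there from the other strains by -0.01 and -0.06 in OLI1, with neither called. Over the 8 strains in both experiments, the means of exp5 and exp6 correlated with r = 0.44 for COX1 and 0.52 for OLI1, as a description over strain means of 2 and 3 libraries. OLI1 of every shared strain was higher in exp6 than in exp5, by 0.28 to 1.73. COX1 went both ways, with exp6 minus exp5 from -1.40 to 0.42. A36 stood high in total RNA in exp4 but had OLI1 at 5.20 and 5.21 in the poly(A) libraries of exp5, close to the other strains (difference 0.05 ± 0.20, adjusted p = 0.824). The 2 library types are not on 1 scale.

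**Figure D3:**
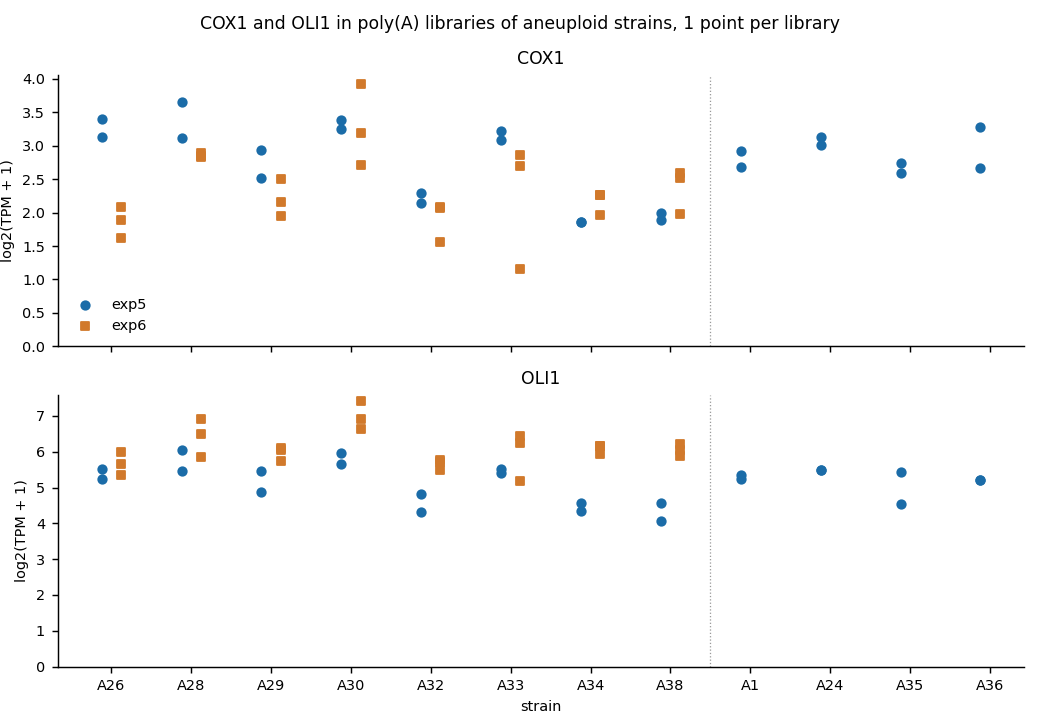
Levels of COX1 (upper panel) and OLI1 (lower panel) in log2(TPM + 1) by strain in poly(A) libraries of exp5 (circles) and exp6 (squares), with 1 point per library. A30 has the highest OLI1 values of exp6, from 6.63 to 7.42 apart from A28 at 6.90, and strains right of the dotted line were in exp5 only.

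In the chemostat, OLI1 fell in the mean of the aneuploid strains and COX1 did not pass the test. OLI1 lay between 5.13 and 9.31 in the 18 aneuploid libraries, against 7.81 and 8.20 in 2N, a difference of -1.47 ± 0.32 (adjusted p = 0.00936). COX1 lay between 2.98 and 5.84 in aneuploid libraries, against 4.17 and 4.27 in 2N, a difference of 0.46 ± 0.28 (adjusted p = 0.291). So 1 of 2 members was called lower, where 13.1% of 5674 genes were, and none higher (2.89%). The median change of all genes was -0.17, and relative to it OLI1 differed by -1.30 and COX1 by 0.63. The OLI1 call was lost without 2N replicate 1 (-1.66, adjusted p = 0.0773) and without 2N replicate 2 (-1.28, adjusted p = 0.143), when a lone 2N library is taken to vary like the rest.

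OLI1 levels differed with the library codes in the titles, with an overlap at 1 library of A23. Libraries of A18, A22, A24, A34, A37 and A38 carry the code d236, and those of A20, A21, A23 and 2N carry d204. OLI1 lay at 5.13, 5.66 and 7.12 (lowest, median, highest) in the 12 d236 libraries, and at 8.10 and 9.31 in A20, 8.47 and 8.51 in A21, and 7.62 and 6.51 in A23. It was called lower in each of the 6 d236 strains, by -2.83 ± 0.43 (A22, adjusted p = 0.000841) to -1.48 ± 0.43 (A37, 0.0236), where 9.34% (A18), 10.4% (A22), 12.2% (A24), 14.6% (A34), 21.1% (A37) and 10.9% (A38) of genes were called lower. In A20, A21 and A23 neither member was called in either direction (backgrounds of 1.02% to 3.26% higher and 7.23% to 9.34% lower). With the d204 libraries alone, aneuploid minus 2N was 0.08 ± 0.38 for OLI1 (adjusted p = 0.899) and -0.17 ± 0.30 for COX1 (0.75). Strain and library code therefore cannot be told apart for the OLI1 difference. Both A24 titles also share a code that begins with F, which the titles do not explain, and 1 of the 2 libraries names A25 in its strain field.

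VAR1, AI5-beta and AI1 moved with the code in the direction opposite to OLI1. COX2, COB and COX3 had lower values in the d236 strains than in A20, A21 and A23, as OLI1 did. COX3 of the d236 strains was still not under 2N. With no filter on low values, COX2 differed from 2N by 1.60, 0.81 and 1.10 in A20, A21 and A23. In the d236 strains it differed by -0.52 to -0.08. For COB these values were 0.88, 1.04 and 0.63, against -0.34 to 0.25. For COX3 they were 1.61, 0.97 and 1.03, against 0.11 to 0.50. None of these was called (8.20% to 22.2% of genes were, in either direction). VAR1, too low for the filter, lay between 1.34 and 2.41 in the d236 libraries and between 0 and 1.10 in the d204 ones, with 2N at 0.29 and 0.30. With no filter on low values VAR1 was called higher in the aneuploid mean (1.12 ± 0.24, adjusted p = 0.0108), where 14.4% of 6692 genes were called in either direction. AI5-beta, the last reading frame inside COX1, lay between 5.03 and 6.76 in d236 and between 0.31 and 3.18 in d204. AI1 lay between 3.80 and 5.38 in d236 and between 1.55 and 3.84 in d204, and COX1 was called higher in A34 alone (5.84 and 5.65, a difference of 1.52 ± 0.37, adjusted p = 0.0151, background 4.09%). When the intron reading frames were added to COX1, its difference for the aneuploid mean became 1.61 (adjusted p = 0.00539). The TPM sum over the table also moved with the code, at 85.1% to 93.6% in d236 and 95.7% to 98.9% in d204, and its part in these differences was not tested. Among the 6 d236 strains neither OLI1 nor COX1 was called (F-test, adjusted p = 0.171 and 0.203), where 26.2% of genes were. In the aneuploid mean, where 13.1% of all genes were called lower, 6 of 10 of complex IV, 4 of 9 of complex III and 6 of 14 of the ATP synthase were called lower and none higher, led by COX7 (-2.30 ± 0.35, adjusted p = 0.00108), QCR9 (-1.35 ± 0.25) and ATP20 (-1.15 ± 0.28). Complex III subunits were called lower also in strains whose OLI1 was not, 5 of 9 in A20 (background 9.34%), 4 of 9 in A21 (9.31%) and 2 of 9 in A23 (7.23%). Of complex IV 1, 0 and 1 of 10 were called lower in A20, A21 and A23, against 3 to 8 in the d236 strains (9.34% to 21.1%). Of the ATP synthase these counts were 4, 1 and 2 of 14, against 1 to 11. Of 19 translational activators of mitochondrial mRNAs 10 were called lower in the aneuploid mean. They were led by PET122 (-1.08 ± 0.29) and PET111 (-0.84 ± 0.23), which act on the COX3 and COX2 mRNAs. In A20, A21 and A23 2, 1 and 1 of the 19 were called lower, against 2 to 12 in the d236 strains. Strain and library code cannot be told apart for these nuclear genes either.

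**Figure D4:**
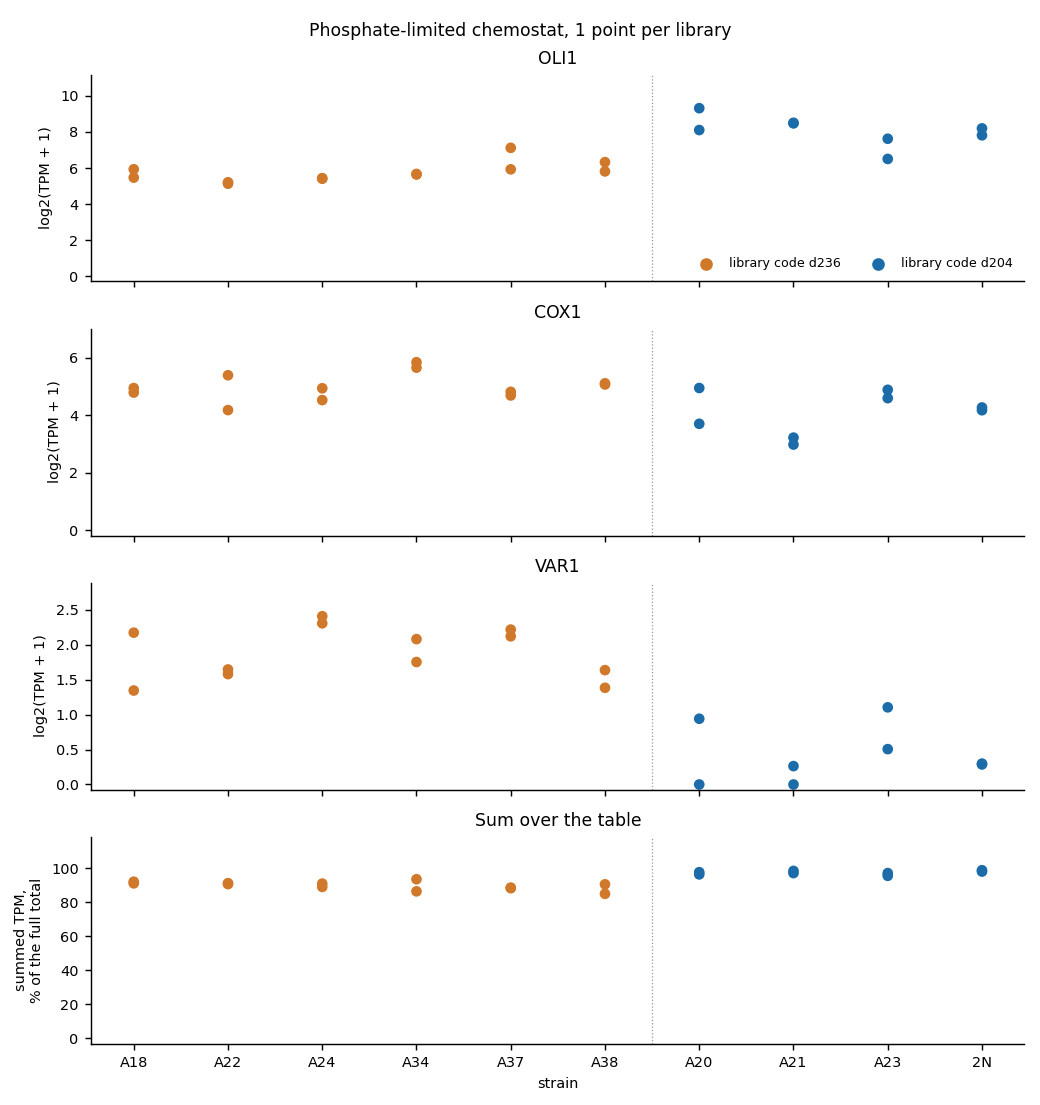
Levels of OLI1, COX1 and VAR1 in log2(TPM + 1) and the TPM sum over the table as a percent of the full total (y axes) by strain (x axis) in the chemostat, with 1 point per library and colour for the library code in the title. OLI1 lies at or under 7.12 in every d236 library, and VAR1 there lies at or above 1.34.

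The pooled populations gave different results under the 2 protocols. In the dilution pools COX1 was 2.99, 3.11 and 3.01 in the aneuploid population, against 2.37, 2.55 and 1.93 in the euploid one, a difference of 0.76 ± 0.16 (adjusted p = 0.000354), and the groups did not overlap. OLI1 was 3.82, 4.56 and 4.40 in the aneuploid population, against 3.12, 4.17 and 3.2 in the euploid one, a difference of 0.76 ± 0.29 (adjusted p = 0.0233), with overlap. Both were called higher, as were 60.9% of 5699 genes, and relative to the median of all genes (0.27) they differed by 0.49 each. The OLI1 call rested on single libraries: without dilution euploid replicate 1 or 3, or aneuploid replicate 2 or 3, its adjusted p was 0.0681 to 0.105 and its difference 0.57 to 0.69. In the Tsai pools COX1 was 4.43, 4.49 and 4.78 in the aneuploid population, against 4.47, 4.62 and 4.59 in the euploid one (0.01 ± 0.16, adjusted p = 0.967). OLI1 was 5.16, 5.83 and 5.96 in the aneuploid population, against 5.69, 6.35 and 6.45 in the euploid one (-0.52 ± 0.29, adjusted p = 0.11), so that neither was called, while 41.0% of genes were called higher and 34.7% lower. Without Tsai euploid replicate 1 OLI1 was called lower (-0.76, adjusted p = 0.0337). With a term for replicate number it was also called lower, at the same size (-0.52, adjusted p = 0.00488). Libraries of the same number did not deviate together over all genes, however. The Tsai effect minus the dilution effect was -0.75 ± 0.22 for COX1 (adjusted p = 0.00579) and -1.28 ± 0.40 for OLI1 (0.00871), both called, where 50.4% of genes were called lower and 24.7% higher in this test. Nuclear subunits differed in the same direction: all 10 of complex IV, all 9 of complex III and all 14 of the ATP synthase had lower values for this difference, with medians of -0.91, -1.07 and -0.56.

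Against exponentially growing WT cells, the euploid pools went apart. In the Tsai euploid pool COX1 (4.47, 4.62 and 4.59) was above WT (2.72, 2.92 and 3.31) by 1.58 ± 0.16 (adjusted p = 4.14e-08). OLI1 (5.69, 6.35 and 6.45) was above WT (3.28, 4.03 and 3.75) by 2.48 ± 0.29 (2.92e-07), both called higher where 43.9% of genes were. In the dilution euploid pool COX1 was called lower than WT, by -0.70 ± 0.16 (adjusted p = 0.000699, background 42.3%), and OLI1 differed by -0.19 ± 0.29 (0.564). Nuclear subunits of the same complexes were called higher than WT in both pools. In the Tsai euploid pool all 10, 9 and 14 subunits of complex IV, complex III and the ATP synthase were called higher, with medians of 1.78, 1.97 and 1.35. In the dilution euploid pool, where 29% of all genes were called higher, they were also all called higher, with medians of 0.71, 1.00 and 0.81, among them COX26 (3.30 ± 0.08), QCR10 (1.45 ± 0.08) and INH1, an inhibitor of the ATP synthase (2.11 ± 0.11). COX1 and the nuclear subunits of its own complex thus differed from WT in opposite directions there. The comparisons share the WT libraries, and that of the dilution pool also shares its euploid libraries with the comparison above.

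Along the growth of the WT haploid, OLI1 rose late. OLI1 was 2.95 and 2.53 at 0 h, 1.58 and 2.91 at 2 h, 4.17 and 3.23 at 4 h, 4.32 and 4.77 at 6 h, 3.99 and 3.29 at 8 h, 2.97 and 4.77 at 10 h and 3.76 and 3.95 at 12 h. It was 2.96 and 3.37 at 14 h, 3.61 and 4.86 at 16 h, 5.26 and 5.65 at 18 h, 6.37 and 6.47 at 20 h, 6.18 and 5.26 at 22 h, 5.88 and 6.85 at 24 h and 6.80 and 5.92 at 26 h. Every library from 18 h on was above every library up to 16 h. The last time is 26 h in the titles and 28 h in the growth description. OLI1, the only member that passed the filter, differed over the 14 times (F-test, adjusted p = 4.59e-11), where 80.3% of 5444 genes did. The mean of 18 to 26 h exceeded that of 0 to 12 h by 2.55 ± 0.24 (adjusted p = 1.36e-14), a 5.86-fold difference, where 18.9% of genes were called higher and 58.8% lower. The median of all genes fell by 0.81 in this comparison, and relative to it OLI1 rose by 3.36. Between 14 and 16 h the difference was 1.07 ± 0.57 (adjusted p = 0.166, background 13.8% higher and 13.6% lower). The mean of 22 to 26 h minus that of 18 to 20 h was 0.21 ± 0.37 (adjusted p = 0.6, background 0.882% higher and 63.6% lower).

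The other members were low in the poly(A) libraries of the time course, with values of 0 among them. COX1 lay between 2.35 and 3.11 in the 10 libraries of 18 to 26 h, against 0 and 1.77 as the limits of the 14 libraries of 0 to 12 h, without overlap. COX3 lay between 1.68 and 3.62 at the late times, against 0 and 1.89 at the early ones, and COB between 1.19 and 3.02, against 0 and 1.24, with an overlap in both. COX2 lay between 0 and 3.58 at the late times, with replicate 2 of 20 h and of 24 h listed at 0, and between 0 and 1.83 at the early ones. ATP8 was listed at 0 in all 28 libraries. With no filter on low values, 6 of the 8 members were called higher at 18 to 26 h (COX1 1.82 ± 0.14, COX3 1.96 ± 0.25, COB 1.80 ± 0.20, COX2 1.56 ± 0.40, ATP6 0.72 ± 0.20 and OLI1), where 68.9% of 6692 genes were called in either direction, and VAR1 and ATP8 were not. On this scale fold changes of such low genes are understated.

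The TPM sum over the table moved with time as well. It lay between 15.4% and 80.6% in the libraries of 18 to 26 h and between 59.0% and 95.8% in those of 0 to 12 h. At like sums, replicate 2 of 20 h (80.6%) had OLI1 at 6.47 and COX1 at 2.63, against 4.77 and 1.37 in replicate 2 of 10 h (80.6%). Replicate 2 of 24 h (61.1%) had OLI1 at 6.85 and COX1 at 2.47, against 4.77 and 0.82 in replicate 2 of 6 h (59.0%). Without the libraries whose sum was under 50%, an alternative chosen after the data were seen, OLI1 exceeded its early level by 2.71 ± 0.24 (adjusted p = 8.71e-11). The pairs above are single libraries, and the part of the TPM sum in the late rise was not tested.

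**Figure D5:**
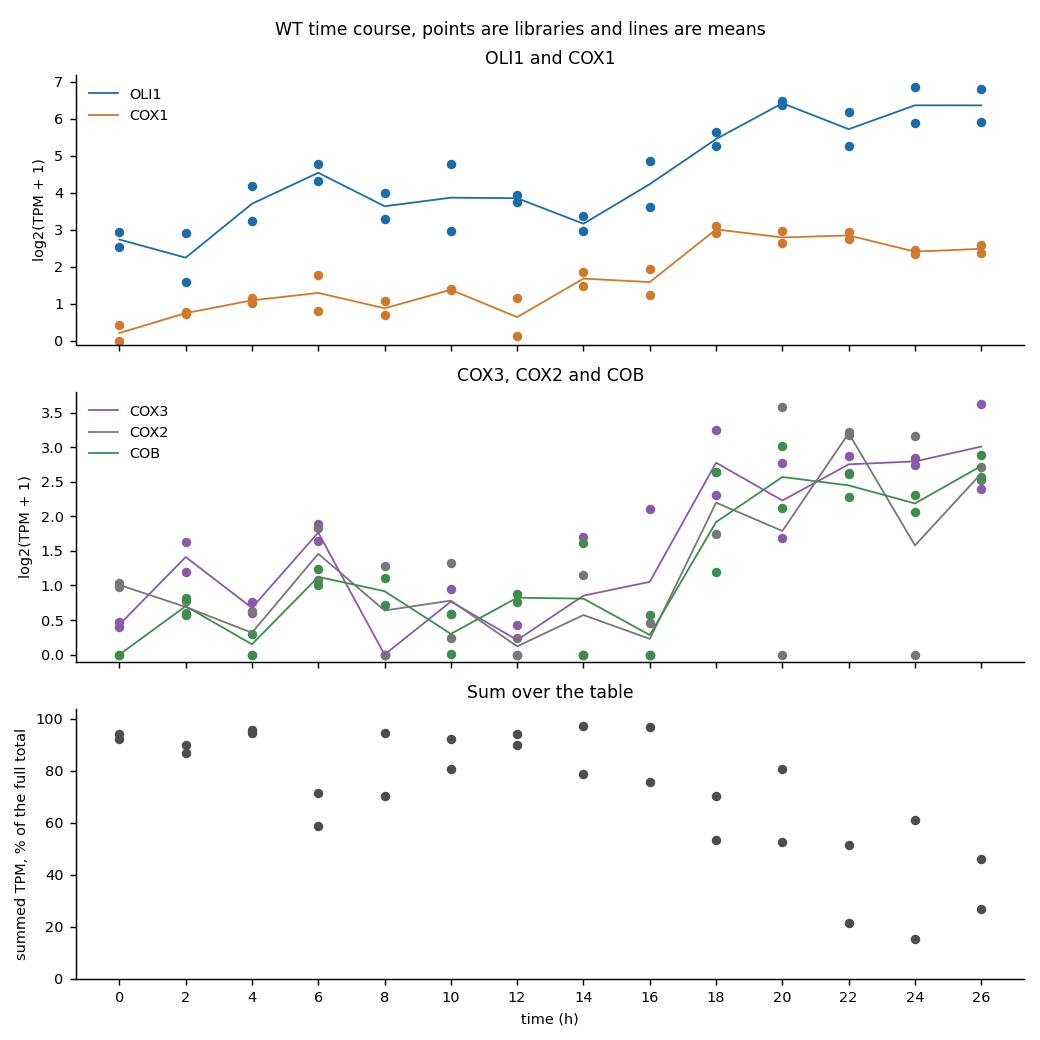
Levels of OLI1 and COX1 (top) and of COX3, COX2 and COB (middle) in log2(TPM + 1), and the TPM sum over the table as a percent of the full total (bottom), against time in h along the growth of WT cells. Points are libraries and lines join the means of 2. OLI1 is at or above 5.26 from 18 h on and at or under 4.86 before.

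Nuclear subunits rose over the same times, when most genes were called lower. All 10 tested of complex IV, all 9 of complex III and all 14 of the ATP synthase were called higher at 18 to 26 h than at 0 to 12 h, with medians of 2.77, 3.37 and 2.17 against -0.81 for all genes. Among them were COX26 (6.56 ± 0.25), COX13 (3.40 ± 0.22), QCR7 (3.77 ± 0.22), CYT1 (cytochrome c1, 3.71 ± 0.23), INH1 (4.58 ± 0.23) and ATP4 (2.45 ± 0.22). Of genes that keep and copy the mitochondrial genome 7 of 10 were called lower and none higher, near the 58.8% of all genes called lower, among them MGM101 (-1.84 ± 0.23), RIM1 (-1.53 ± 0.24) and PIF1 (-1.41 ± 0.21), with a median of -0.69. Of 18 genes of mitochondrial RNA processing 4 were called higher and 10 lower, also near the shares of all genes (18.9% and 58.8%), with RPM2, a subunit of mitochondrial RNase P, higher (2.61 ± 0.23) and MRS1, a splicing factor for COB and COX1 introns, lower (-2.82 ± 0.21). Of 30 proteins of the small mitochondrial ribosomal subunit, the partners of VAR1, 4 were called higher and 10 lower (median -0.09). CIT2 rose by 1.70 ± 0.23, while DLD3 (-1.19 ± 0.23) and PDR5 (-0.75 ± 0.23) were called lower. Over the 28 libraries the mean of the members was followed most closely, among 5442 nuclear genes, by YLR154W-A (r = 0.89), FBP1 and PCK1 of gluconeogenesis (0.88 and 0.87), SFC1 (a mitochondrial succinate and fumarate carrier, 0.88) and TAR1 (0.85). YLR154W-A and TAR1 lie in the ribosomal DNA repeat.

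In W303 cells after 40 min in NaCl, for which no control of the same strain was among the libraries, 6 members had values above 0 in each library. OLI1 was 6.62, 6.89 and 7.30, COX1 5.15, 5.15 and 5.36, and COB 4.46, 4.35 and 4.32. COX2 was 4.47, 4.67 and 4.70, COX3 4.14, 4.15 and 4.23, and ATP6 2.24, 1.16 and 1.16. ATP8 was listed at 0 in all 3 libraries. These libraries are labelled poly(A). Their TPM sums over the table were 20.5%, 14.0% and 14.4%, nearer to the total RNA libraries of exp1 to exp4 than to the poly(A) ones of exp5 and exp6. The lowest sum of the poly(A) time course lay in the same range, so a low sum does not mark a library type. ATP6 was under its lowest level in the total RNA libraries (4.85).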

How the data were processed

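Values are log2(TPM + 1) for 6692 genes, in the scale that the authors deposited per the labels. STAR 2.5.3a, RSEM 1.3.0 and sacCer3 are named in the submitters' processing notes. Counts were not used here, so depth and counting error are unknown, and the scale compresses changes of low genes. Groups came from the titles, also for the 2 libraries whose strain field disagrees.

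On these log2 values limma 3.58.1 (R 4.3.3, variance trend) was run for genes with a mean of at least 2 over the libraries of a fit, with Benjamini-Hochberg adjustment over all of them and a threshold of 0.05. The exp1 to exp3 fit held 44 libraries, with terms for strain and experiment and 31 residual degrees of freedom. The exp4, exp5, exp6, chemostat, population and time course fits held 18, 24, 24, 20, 15 and 28 libraries, with 1 mean per group. The fits were tested on simulated data. TPM sums, motif searches and plots used numpy 2.4.6, pandas 2.3.3 and matplotlib 3.10.9 under Python 3.11.15. Sequences came from RefSeq R64, whose coordinates for the members equal those of the deposited annotation.

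The members and the lists of nuclear partners were chosen with earlier results of these data known. The genes named are the 8 members, from each list up to 3 called genes with the largest change, and the 5 nuclear genes closest to the mean of the members by Pearson r. Alternatives were TPM rescaled to nuclear genes, centring on library medians, pseudocounts of 0.1 and 5, no filter or one at 4, intron reading frames added to COX1 and COB, single experiments or library codes, strain as a random term, a replicate block, and leaving out each library.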

Additional observations from a re-analysis of the deposited data

Results flagged for a closer look

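The aneuploid minus euploid difference was not the same under the Tsai and the dilution protocol for either member tested. The Tsai effect minus the dilution effect was -0.75 on the log2 scale for COX1 (adjusted p = 0.00579) and -1.28 for OLI1 (adjusted p = 0.00871), by limma's test of that difference. Over 22 alternatives the COX1 value lay between -0.88 and -0.45, and over 23 the OLI1 value lay between -1.62 and -1.03. Both kept an adjusted p under 0.05 wherever they were tested. In the same test 50.4% of all genes were called lower.

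In the 4 exp1 libraries of 2N, ATP8 in replicate 3 stood apart from the others, at 2.75 against 0 in each of the other 3 libraries. The gap passes the 95% critical value of Dixon's test for 4 samples, but with 3 values tied at 0 any value above 0 would, so that the usual rate of about 1 flag in 20 groups does not hold. The level is near the median of ATP8 over the total RNA libraries (2.81), of which 12 of 62 were at 0, and 8 genes were checked. Summed TPM of that library was 6.90% of the full total, against 5.57% to 5.99% in the others.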

How the results depend on the processing

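In exp1 to exp3 the count of 6 members called higher was 6 or, in exp2 alone, 5 under 11 of 12 alternatives, and 0 with strain as a random term. Leaving out each library gave 6 to 6, and 33 to 40 calls over single strains (36 with all). ATP8, never called, changed sign in exp2 alone (-0.69). In the chemostat the 1 call for the aneuploid mean became 2 with intron reading frames summed, 2 with no filter and 0 among d204 libraries, and the 7 calls over strains became 12, 13 and 0. There COX1 (-0.17) and OLI1 (0.083) changed sign. Leaving out each library gave 0 to 1 and 4 to 8 calls.

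For the dilution pools the 2 calls became 1 when centred, with no filter or with a filter at 4, and 1 to 2 when leaving out each library. For the Tsai pools 0 became 1 with a replicate block (OLI1, -0.52, adjusted p = 0.00488; 0.00488 to 0.428 over all alternatives), and 0 to 1 when leaving out each library. COX1, at 0.01 there, was -0.049 after rescaling to nuclear genes, -0.055 when centred, and between -0.10 and 0.078 without single libraries. A filter at 4 left 1 call in the test between the protocols, 1 for the Tsai euploid pool against WT, 0 for the dilution euploid pool against WT, and 1 each in exp5 and exp6. With no filter the Tsai euploid pool had 5. In the time course, no filter gave 4 calls over all times, 6 for 18 to 26 h and 1 for 22 to 26 h, and centring 1 for 22 to 26 h. The causes of these changes were not tested, apart from filters, which change the members tested.

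Single members kept direction and side of the threshold in 760 alternatives, lost a call in 15, gained one in 4 and changed sign in 7. Libraries with the same replicate number did not deviate together (correlations of -0.58 to 0.48 between pairs, with a median from -0.040 to 0.022 in each fit), which is below what pairing by number would need over all genes, although OLI1 was lowest in replicate 1 of each of the 5 population groups. The replicate block changed no count by over 1.5 times other than that of the Tsai pools. Levels near 0 in poly(A) libraries, and unknown depth, limit what can be said of ATP8 and VAR1.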
